A study of Mus musculus with 16 samples.

Results

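The first postnatal week of the Dyrk1a+/- cerebral cortex was described from 8 of the 16 arrays of a mouse series. Of these, 4 held total RNA of Dyrk1a+/- cortex taken at postnatal day 0 (P0) and 4 that of Dyrk1a+/- cortex taken at postnatal day 7 (P7). The other arrays held Dyrk1a+/+ cortex, 4 at P0 and 4 at P7, and are called wild type here. Each title names its array as a biological replicate with a number from 1 to 4. The labels give no strain, no sex and no description of the targeted allele beyond the genotype, and a pup was sampled once, so both ages come from different animals. Each array gave 1 log2 signal for every probe set, and the probe set with the highest mean over the 16 arrays stood for its gene, where it was paired with a single symbol. Of 18193 genes the 12801 above a filter on dim genes were tested. A difference is the mean of the P7 arrays minus the mean of the P0 arrays on the log2 scale, so that a negative value is a lower signal at P7. A gene was called, and is said to have risen or fallen, where limma gave a Benjamini-Hochberg adjusted p under 0.05 over all genes tested. Values of the 4 arrays of a group are given in the order of the replicate numbers, and a level is never compared between genes, since probe sets differ in brightness.

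Dyrk1a encodes a protein kinase that phosphorylates its targets on serine and threonine and that activates itself on a tyrosine. It is known to act on cyclin D1 and other regulators of the exit from the cell cycle, on splicing factors, on NFAT transcription factors and on proteins of endocytosis. In the rodent cortex most projection neurons have been born by birth. During the following week the last of them settle in the upper layers, dendrites and synapses form, astrocytes and oligodendrocyte precursors spread, and the first oligodendrocytes mature.

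Markers of the neocortex were above the filter on dim genes wherever they were measured, and most of them changed with age. Of 10 genes written as marks of the neocortex, 7 were measured and tested. The vesicular glutamate transporter gene Slc17a7 (1.24), the synaptic membrane gene Snap25 (0.74) and the neocortical transcription factor gene Emx1 (0.38) rose. The transcription factor genes Neurod6 (-1.03), Tbr1 (-1.02) and Neurod2 (-0.84) fell, and Fezf2 had -0.45 without passing (adjusted p = 0.0792, limma). Emx1 lost its call without heterozygous P0 replicate 2 or 4 or P7 replicate 2. Fezf2 passed without P0 replicate 4 (-0.62) or P7 replicate 1 (-0.56).

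Over all 16 arrays the medians lay between 5.84 and 5.86, and the first principal component, which parted the ages, held 61.8% of the variance. The arrays of replicates 1 and 2 separated from those of replicates 3 and 4 in every group, and 5087 genes differed between these sets of arrays with the groups in the model. The labels do not say what the sets stand for. Each group held 2 arrays of each set, so list medians are also available within the sets. Of 6194 genes called between the ages 1 had the opposite sign within either set. The call drew on both sets, so this agreement of sign was nearly given in advance and is no separate support. Of the same genes 4668 were called within replicates 1 and 2 and 4575 within replicates 3 and 4. The Y-linked gene Eif2s3y was high on heterozygous P0 replicate 2 and on heterozygous P7 replicates 1 and 4 (10.44 or more) and low on the other heterozygous arrays (3.30 or less), so that this level was not balanced between the ages. With that level as a covariate 5998 genes were called. A code in the labels also parts the arrays of each age into replicates 1 and 3 and replicates 2 and 4, in both genotypes. No part of this code holds arrays of both ages, and what it stands for is not known here. With it as a random block 6481 genes were called in heterozygotes.

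Dyrk1a itself had less signal at P7 than at P0 on its brightest probe set. The signal was 8.05, 8.30, 8.15 and 8.18 at P0 and 7.60, 7.79, 7.71 and 7.69 at P7, a difference of -0.47 (SE 0.09, exact two-sided permutation p = 0.0286, the smallest that 4 arrays against 4 allow). No P7 array reached the lowest P0 array, and wild type changed by -0.34. The next brightest probe set gave 6.57, 6.89, 7.45 and 7.03 at P0 and 6.17, 5.68, 5.89 and 5.85 at P7, a difference of -1.09 (SE 0.18, exact permutation p = 0.0286). Again the groups did not overlap. In wild type that probe set changed by -0.14 (exact permutation p = 0.514), and the difference between the genotypes' changes was -0.95. The dimmest probe set lay between 4.55 and 5.25 on all 8 heterozygous arrays, with a difference of 0.03 (SE 0.15, exact permutation p = 0.914). Dyrk1a signal was not lower in the heterozygotes than in wild type on the brightest probe set, where wild type had 8.01, 8.18, 7.92 and 7.83 at P0 and 7.62, 7.57, 7.70 and 7.70 at P7. Heterozygotes minus wild type was 0.19 at P0 (exact permutation p = 0.0857) and 0.05 at P7 (exact permutation p = 0.4). On the next brightest probe set it was 0.47 at P0 (exact permutation p = 0.0857) and -0.48 at P7 (exact permutation p = 0.0571). Which exons these probe sets cover is not known here, so the values neither bear out nor refute the genotype labels.

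Of the 12801 genes tested, 6194 were called between P7 and P0 in the heterozygotes, a share of 48.4%. Of these 3268 (25.5%) were higher and 2926 (22.9%) lower at P7. With a difference of at least 1 on the log2 scale as well, 833 genes (6.51%) were called, 579 of them higher (4.52%) and 254 lower (1.98%). The arrays of both ages did not overlap for 5002 called genes (39.1%), 2646 higher (20.7%) and 2356 lower (18.4%). The median absolute difference over all genes tested was 0.29, and 1 gene in 20 lay below -0.75 and 1 in 20 above 0.96. These shares are the background against which the counts of the gene lists below are read. The split by direction depends on the scaling. With the arrays quantile normalized again 6142 genes were called, 3632 higher and 2510 lower, and the median over all genes was 0.08.

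The genes with the largest rises are given first, each on its brightest probe set. They, the largest falls and most list members named below were chosen among called genes whose ages do not overlap. Of all genes tested 39.1% met that condition in either direction, so the lack of overlap is no separate result. The myelin basic protein gene Mbp had 4.87, 5.93, 6.05 and 5.38 at P0 and 10.81, 10.09, 9.66 and 10.13 at P7, a rise of 4.62 (SE 0.26, limma adjusted p = 1.20e-09). Hapln1, which encodes a link protein that holds hyaluronan to proteoglycans in perineuronal nets, had 4.27, 4.61, 4.12 and 4.78 at P0 and 8.90, 8.92, 8.84 and 9.23 at P7, a rise of 4.53 (SE 0.24). Mbp lay at 6.05 or less on the P0 arrays. All P0 arrays of Hapln1 lay below 5.15, the level of the filter on dim genes, so it was tested through its P7 signal, and whether its P0 signal stands above background is not known here. Its difference is then one from a dim signal, and its place among the rises is uncertain. The same holds for Vip, Rasl10a, Gabrd, Scn4b and Pvalb below, and at P7 for Phf21b and Neurog2, which lay under that level on all 4 P7 arrays.

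The intermediate filament gene of astrocytes, Gfap, had 4.42, 5.16, 3.77 and 4.66 at P0 and 8.76, 8.85, 7.61 and 8.78 at P7, a rise of 4.00 (SE 0.32). Heterozygous P7 replicate 3 stood about 1 log2 unit below the other P7 arrays and still above all P0 arrays. The P0 arrays other than the one at 5.16 lay below 5.15, the level of the filter on dim genes. The difference of Gfap is therefore also one from a dim signal. Aqp4, the water channel of astrocyte endfeet, had 7.05, 7.05, 6.92 and 7.15 at P0 and 10.12, 9.97, 10.08 and 9.69 at P7, a rise of 2.92 (SE 0.12). The receptor gene Gpr37l1 (3.21) and the proteoglycan gene Gpc5 (2.63), both abundant in astrocytes, rose too. Bcas1 (2.83) and Gpr17 (2.72), marks of oligodendrocytes that are about to mature, rose without overlap of the ages.

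Of the neuronal genes with the largest rises, Ddn, which encodes the dendritic protein dendrin, had 8.67, 8.24, 8.70 and 8.51 at P0 and 11.35, 11.67, 11.46 and 11.45 at P7, a rise of 2.95 (SE 0.16). The surface protein gene Thy1 (2.80), the α-tubulin gene Tuba4a (2.70), the inositol trisphosphate kinase gene Itpka of dendritic spines (2.69) and Rasl10a (3.02) rose as well. Vip, the peptide of a class of cortical interneurons, had 3.85, 3.57, 4.09 and 4.53 at P0 and 6.99, 6.82, 6.66 and 7.04 at P7, a rise of 2.87 (SE 0.18). Crh, the corticotropin-releasing hormone gene, had 5.99, 5.62, 5.49 and 6.55 at P0 and 8.25, 8.25, 8.99 and 9.48 at P7, a rise of 2.83 (SE 0.27). For all these genes every P7 array lay above every P0 array, as their selection required.

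Among the genes with the largest falls, Igfbpl1, an insulin-like growth factor binding protein gene of newborn neurons, had 9.79, 9.95, 9.62 and 9.85 at P0 and 6.78, 6.78, 7.02 and 6.94 at P7, a difference of -2.92 (SE 0.20, limma adjusted p = 9.41e-09). Sox11, a transcription factor of young neurons, had 13.38, 13.22, 13.25 and 13.26 at P0 and 11.48, 11.39, 11.29 and 11.26 at P7 and a difference of -1.92 (SE 0.10). Its arrays were tight within each age. Ezh2, the methyltransferase of the Polycomb repressive complex that marks histone H3, had 10.83, 10.85, 10.66 and 11.05 at P0 and 8.72, 8.90, 9.33 and 9.22 at P7 and a difference of -1.80 (SE 0.14).

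H3f3b, a gene of the histone variant H3.3, had 9.67, 9.79, 9.64 and 9.12 at P0 and 6.42, 7.20, 7.05 and 6.48 at P7 and a difference of -2.77 (SE 0.19). Insm1, which drives progenitors toward neurons, had -1.88, and the heparan sulphate proteoglycan gene Gpc2 had -2.14. The axonal adhesion gene Cntn2 (-1.93), the transcription factor genes Isl1 (-2.46), Ebf1 (-1.92) and Zfhx4 (-1.79), and Phf21b (-1.87), Mn1 (-1.83), Zfp81 (-1.98), B330016D10Rik (-2.15) and the MAP kinase phosphatase gene Dusp4 (-1.77) fell too. The plot of the leading genes by array shows part of these falls, with the ages apart as their selection required.

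The size of a change depended on the probe sets used. Of 191 called genes named here, 56 had a value that moved by more than 1.5 times when a gene's probe sets were averaged or without the probe sets of the suffixes _x_at, _s_at and _a_at, and 0 of these turned their sign. With the average, the rise of Mbp was 2.71 in place of 4.62, that of Gfap 2.39 in place of 4.00, and that of Bcas1 1.12 in place of 2.83. Averaged in this way, Hapln1, Bub1, Pax6, Zfp81, Gabrd and Mobp fell below the filter on dim genes and had no value. Without those suffixes Gfap had 0.89, so that its place among the leading genes rests on its brightest probe set. Of genes described below, the average gave 0.95 for Camk2a, 0.83 for Camk4, 1.21 for Slc1a2, 1.05 for Egr3 and -0.65 for Top2a.

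**Figure D1:**
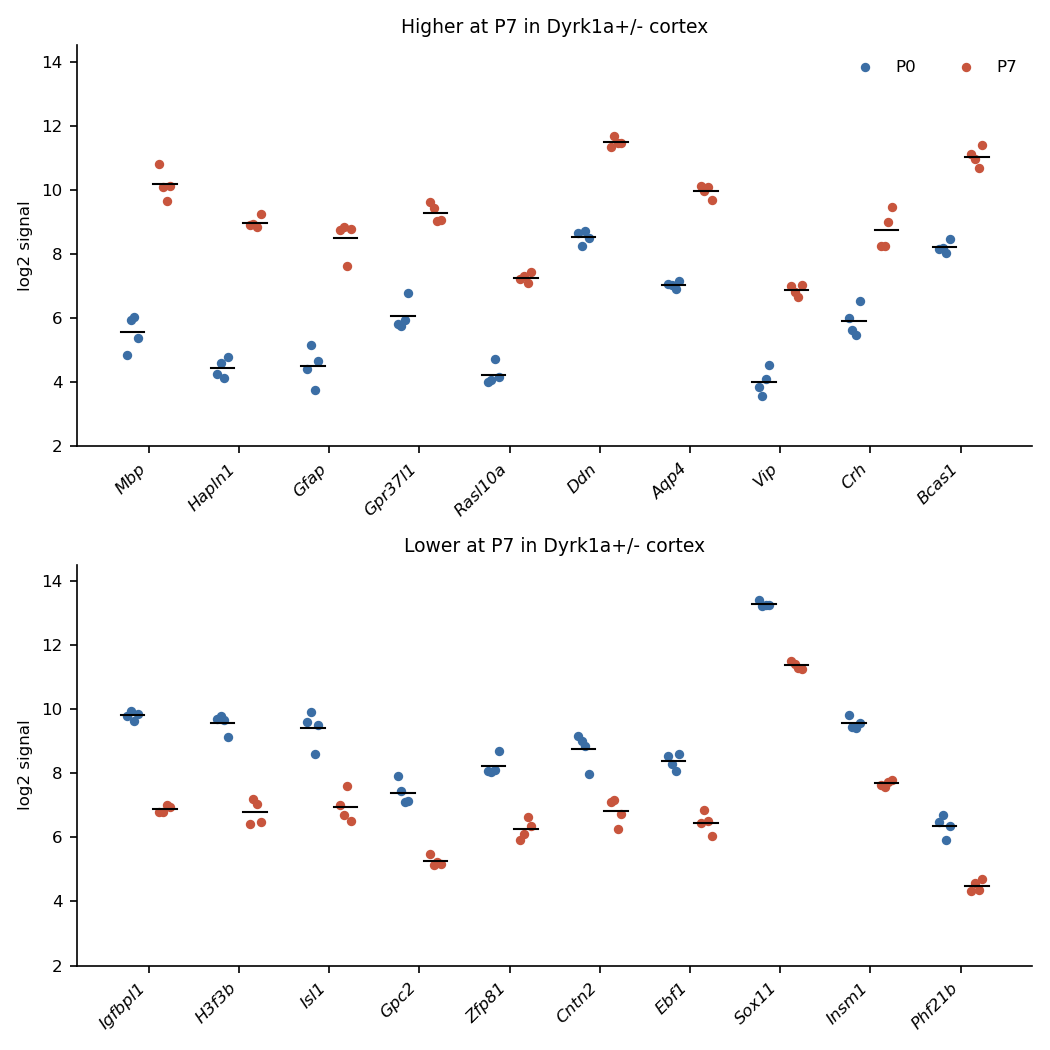
Log2 signal of the leading genes in Dyrk1a+/- cortex, with each point 1 array (blue P0, red P7, 4 arrays each) and the black line their mean. The upper row holds, by their brightest probe sets, the 10 genes with the largest rises and the lower row 10 of the largest falls. All were chosen among called genes whose ages do not overlap.

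Because the samples are pieces of whole cortex, fewer cells of a type and less RNA per cell cannot be told apart for any gene or list here. Lists of genes were written from general knowledge of cortical development with earlier results of these data known, so their counts are a description and no independent support. Of each list the counts over the genes tested and the median difference are given. They stand beside the 25.5% that rose and the 22.9% that fell among all genes and a median over all genes of 0.04. A range after a median spans the alternatives of processing listed at the end. Where a list had 0 genes called in a direction, 0 had an unadjusted p under 0.05 in that direction either, apart from Grik2 among glutamate receptors and Kcnd3 among potassium channels, 1 gene each that was lower at P7 and that is named after its value was seen.

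Genes of dividing cells fell almost throughout. Of 42 genes of S phase to mitosis, 41 were measured and 39 tested, of which 0 rose, 34 fell and 5 were not called in limma, with a median of -0.73. The replicative helicase subunit gene Mcm7 had 11.55, 11.76, 11.68 and 11.52 at P0 and 10.12, 10.07, 9.83 and 10.03 at P7, a difference of -1.61 (SE 0.11). Gins1, of the complex that activates that helicase, had -1.38, and the mitotic topoisomerase gene Top2a had 9.31, 9.25, 8.94 and 8.99 at P0 and 8.05, 7.77, 7.55 and 7.77 at P7, a difference of -1.34 (SE 0.14). The spindle genes Nusap1 (-1.10) and Kif11 (-1.06) and the spindle checkpoint kinase gene Bub1 (-1.06) each fell by more than 1 on the log2 scale. Each of these genes stayed above 5.15, the level of the filter, on every P7 array, and the ages did not overlap. Within replicates 1 and 2 the list's median was -0.83, and within replicates 3 and 4 it was -0.64.

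Promoters of these genes are known for binding sites of NF-Y, whose core is CCAAT, for the cell cycle homology region, whose core is TTTGAA, and for E2F factors, whose sites include TTTCGCGC. RefSeq windows on GRCm38.p6, from 250 bases before to 50 bases after the start, were searched for these letters on both strands. They are shown for members with large falls because no other list had a larger share of its genes called in 1 direction (87.2%), and the matches are in capitals (the reverse of CCAAT reads ATTGG, that of TTTGAA reads TTCAAA, and the 2 motifs of Mcm7 at its right end share letters). Top2a lies at chr11:99024140-99024439 (minus strand), Kif11 at chr19:37376132-37376431 (plus strand), Bub1 at chr2:127831810-127832109 (minus strand) and Mcm7 at chr5:138171834-138172133 (minus strand), each read along its own gene's strand, 5′ to 3′.
Top2a: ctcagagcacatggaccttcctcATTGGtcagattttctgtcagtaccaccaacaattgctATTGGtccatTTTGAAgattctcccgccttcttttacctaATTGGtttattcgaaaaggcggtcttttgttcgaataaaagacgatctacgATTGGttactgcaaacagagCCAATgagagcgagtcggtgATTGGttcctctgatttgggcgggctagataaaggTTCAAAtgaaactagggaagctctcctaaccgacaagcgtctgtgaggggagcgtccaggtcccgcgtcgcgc
Kif11: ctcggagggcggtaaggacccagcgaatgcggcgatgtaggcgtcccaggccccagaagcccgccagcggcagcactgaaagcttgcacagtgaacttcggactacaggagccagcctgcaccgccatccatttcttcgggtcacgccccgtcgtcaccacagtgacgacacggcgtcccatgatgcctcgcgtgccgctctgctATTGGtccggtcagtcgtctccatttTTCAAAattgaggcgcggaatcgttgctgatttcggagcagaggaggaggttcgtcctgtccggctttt
Bub1: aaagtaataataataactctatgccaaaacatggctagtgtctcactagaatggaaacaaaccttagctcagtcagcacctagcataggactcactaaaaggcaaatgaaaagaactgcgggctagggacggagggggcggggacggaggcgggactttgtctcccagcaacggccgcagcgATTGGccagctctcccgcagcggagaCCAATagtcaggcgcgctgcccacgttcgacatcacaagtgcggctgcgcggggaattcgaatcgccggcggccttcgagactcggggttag
Mcm7: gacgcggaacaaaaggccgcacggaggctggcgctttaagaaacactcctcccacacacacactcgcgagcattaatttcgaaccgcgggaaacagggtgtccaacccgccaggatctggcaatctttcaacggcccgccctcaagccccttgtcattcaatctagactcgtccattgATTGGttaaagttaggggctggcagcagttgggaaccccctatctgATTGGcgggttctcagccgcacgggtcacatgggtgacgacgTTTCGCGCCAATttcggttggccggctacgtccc

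In these windows the Top2a promoter held 6 matches to CCAAT and 2 to TTTGAA, and that of Kif11 held 1 of each. Bub1 had 2 matches to CCAAT, and Mcm7 had 3 and 1 to TTTCGCGC. For Mcm7, which has 2 windows, the one shown was picked by its count of matches. Nusap1, whose fall was of the same size, had none of the 3 in its window. Of the 34 members that fell, 30 were matched to 32 windows. Of these windows 28 (87.5%) held CCAAT, 19 (59.4%) held TTTGAA and 3 (9.38%) held TTTCGCGC. Among all 32851 windows the shares were 37.4%, 17.9% and 0.323%. By role, 10 of the members that fell act in DNA replication, of which 9 were matched to 10 windows. Of the 24 other members 21 were matched to 22 windows. The 10 windows of the replication genes held TTTGAA in 1 case, while of the 22 windows of the others 18 (81.8%) did. CCAAT was found in 8 of the former and 20 of the latter. A match is a string of letters in the window and no measured binding.

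Regulators around the exit from the cycle moved both ways. Of 20 genes of G1 control, 3 rose and 10 fell (median -0.23). Cdkn1c, an inhibitor of cyclin-dependent kinases that is high in young postmitotic cells, had 10.39, 9.94, 10.31 and 9.94 at P0 and 8.65, 8.65, 8.80 and 8.59 at P7, a difference of -1.47. The G1 kinase gene Cdk4 fell as well (-1.28). The inhibitor genes Cdkn1a (1.09) and Cdkn2d (0.65) rose without overlap.

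Progenitor genes were lower in part. Of 20 radial glia genes, 5 rose, a share close to the background, and 9 fell (median -0.14, and -0.22 without P0 replicate 2). Pax6, a transcription factor of cortical radial glia, had 7.18, 7.48, 6.79 and 7.04 at P0 and 6.47, 6.36, 6.02 and 5.88 at P7, a difference of -0.94, and the intermediate filament gene Nes had -0.63. Those that rose included Hopx (1.32) and the glutamate transporter gene Slc1a3 (0.74), both of which astrocytes also express. Of 5 other probe sets of Slc1a3, 2 rose and 1 fell at an unadjusted p under 0.05. Of 12 genes tested of intermediate progenitors, the cells that divide once or more between radial glia and neurons, 1 rose and 5 fell (median -0.22). Neurog2, which starts the neuronal programme in them, had 7.08, 6.44, 6.60 and 6.68 at P0 and 4.90, 4.95, 5.03 and 5.09 at P7, a difference of -1.71, and at P7 it was close to the dim end of the arrays. Hes6 had -0.78.

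Genes of immature and migrating neurons fell in 13 of 30 cases and rose in 2 (median -0.14, -0.23 without P0 replicate 4 and -0.41 over the 27 genes left without the suffixes named above). Besides Sox11, its relative Sox4 fell (-1.38), with 13.36, 13.58, 13.44 and 13.58 at P0 and 12.02, 12.10, 12.17 and 12.16 at P7. The guidance protein gene Draxin (-1.27) and the axonal receptor gene Islr2 (-1.67) were lower at P7 in the same way. The growth-associated protein gene Gap43 rose (0.54).

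Genes that package and read chromatin fell in larger shares than all genes. Of 27 subunits of the BAF complex, which slides nucleosomes, 1 rose and 17 fell (median -0.41). Arid1a, a large subunit that many BAF complexes share, had 11.09, 11.38, 11.05 and 10.93 at P0 and 10.27, 10.49, 10.06 and 10.20 at P7, a difference of -0.86 (SE 0.11). Of 31 genes of DNA methylation and Polycomb, 5 rose and 15 fell (median -0.29), with Bmi1, a subunit of the other Polycomb complex, at -1.15 and Cbx6 rising by 1.25. Of 17 histone genes, 2 rose and 11 fell (median -0.59, and -0.36 over the 12 left without those suffixes). The deacetylase gene Hdac11, which mature oligodendrocytes and neurons express, rose by 0.94.

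Genes of RNA processing and of the ribosome were lower as well. Of 47 splicing and RNA-binding factors, 4 rose and 26 fell (median -0.44). Hnrnpa1, which represses exons, had 11.48, 11.87, 11.81 and 11.94 at P0 and 10.48, 10.78, 10.78 and 10.77 at P7, a difference of -1.07. The stem cell RNA-binding gene Msi2 had -1.02, the neuronal splicing repressor gene Ptbp2 -0.86 and the spliceosome gene Sf3b1 -0.78, all called. Those that rose included Mbnl2 (0.87), which switches exons toward the adult form, and Rbfox3 (0.84), which encodes the neuronal antigen NeuN. Of 73 genes of ribosomal proteins written, 42 were measured and 40 tested, of which 0 rose, 25 fell and 15 were not called in limma (median -0.36). Rplp0 had -0.80 and Rpl7 -0.66. Many ribosomal protein genes have near-identical pseudogenes, which probe sets may not part.

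Genes of the machinery that releases transmitter rose in most cases. Of 46 presynaptic genes tested (of 52 written and 48 measured), 36 rose, 1 fell and 9 were not called, with a median of 0.76. Syn2, which tethers vesicles, lay at 10.17 or less on the P0 arrays and at 11.21 or more on the P7 arrays, a rise of 1.39 (SE 0.10). Stx1a, the plasma membrane partner in vesicle fusion, had 10.90, 10.62, 10.93 and 10.73 at P0 and 12.17, 12.19, 12.25 and 12.38 at P7, a rise of 1.45 (SE 0.12). The calcium sensor genes Doc2a (1.67) and Doc2b (1.49), the priming factor gene Unc13c (1.44) and the complexin gene Cplx3 (1.86) rose too. The 1 gene that fell was Rims3 (-0.70), and its other probe set had the opposite sign at an unadjusted p under 0.05. The list's mean level lay between 9.29 and 9.42 on the P0 arrays and between 9.99 and 10.19 on the P7 arrays.

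On the receiving side, 17 of 25 genes of the postsynaptic scaffold rose and 0 fell in limma (median 0.56, and 0.34 with the mean of all probe sets). Camk2a, the calcium-dependent kinase of excitatory spines, had 7.49, 7.53, 7.45 and 7.82 at P0 and 10.02, 10.13, 10.01 and 10.41 at P7, a rise of 2.57 (SE 0.15). Icam5, an adhesion molecule of dendrites, had 2.62, neurogranin (Nrgn), which holds calmodulin, had 2.13, and the scaffold gene Shank3 had 1.40. Of 18 glutamate receptor genes tested, 9 rose and 0 fell in limma (median 0.41), with the metabotropic receptor genes Grm7 (1.40) and Grm4 (0.93) among them. The presynaptic, scaffold and glutamate receptor lists each had a larger share of rising genes than the 25.5% of the background.

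Of 17 genes of GABA receptors and their postsynapse tested, 12 rose and 2 fell (median 0.63, and 0.40 with the mean of all probe sets). Gabra4, a receptor subunit, had 8.75, 8.65, 8.62 and 8.47 at P0 and 10.17, 10.03, 9.84 and 9.95 at P7, a rise of 1.37 (SE 0.09). Gabrd, the subunit of receptors outside synapses, had 1.66, and Glrb, the anchoring subunit of glycine receptors, had 1.26.

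Of the ion channels, more genes rose than fell in each list. Of 41 potassium channel genes, 29 rose and 0 fell in limma (median 0.66). Kcna2, a channel of axons, had 7.05, 7.19, 7.30 and 7.24 at P0 and 9.03, 8.84, 8.77 and 8.82 at P7, a rise of 1.67 (SE 0.08), and Kcnc4 (1.66) and the silent subunit gene Kcnf1 (1.58) rose too. Of 11 sodium channel genes 7 rose and 2 fell (median 0.57), with the auxiliary subunit genes Scn2b (2.05) and Scn4b (1.70) and the pore gene Scn2a (1.11) among those that rose. Of 15 calcium and HCN channel genes 10 rose and 1 fell (median 0.35).

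Of 20 calcium buffers and sensors 17 rose and 0 fell in limma, and the median, 1.15, was among the largest of the lists. Camk4, a nuclear calcium-dependent kinase, had 9.31, 9.54, 9.77 and 9.15 at P0 and 11.83, 11.13, 11.72 and 11.87 at P7, a rise of 2.20 (SE 0.20). The neuronal calcium sensor genes Hpcal4 (2.04), Hpca (1.88) and Vsnl1 (1.86) rose. All 4 lay higher on every P7 array than on any P0 array.

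Genes that neuronal firing induces rose in 12 of 27 cases and fell in 2 (median 0.36, 0.20 without P0 replicate 2 and 0.21 with the mean of all probe sets). Egr3, a transcription factor, had 7.68, 7.79, 7.96 and 8.25 at P0 and 9.94, 9.68, 9.90 and 10.32 at P7, a rise of 2.04 (SE 0.16). Fos had 8.35, 7.68, 8.18 and 8.20 at P0 and 9.32, 9.37, 9.53 and 10.02 at P7, a rise of 1.46 (SE 0.21). Egr2 (1.65) and the secreted peptide gene Vgf (1.37) rose too, while the phosphatase gene Dusp1 fell (-0.90). The neurotrophin gene Bdnf, which activity also induces, had 6.07, 5.96, 5.78 and 6.08 at P0 and 7.30, 7.18, 7.40 and 7.46 at P7, a rise of 1.36 (SE 0.11). Of 22 neurotrophin and receptor genes 10 rose and 6 fell (median 0.33, range 0.17 to 0.42).

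Receptors for monoamines, acetylcholine and peptides rose in 13 of 24 cases and fell in 4 (median 0.42). The somatostatin receptor gene Sstr4 had 6.89, 7.18, 7.28 and 6.75 at P0 and 9.36, 9.27, 8.73 and 9.19 at P7, a rise of 2.11 (SE 0.16). The serotonin receptor gene Htr2c (1.49) and Crhr1 (1.23), the receptor of the peptide encoded by Crh, rose as well.

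Astrocyte genes rose in most cases. Of 30 tested, 26 rose, 1 fell and 3 were not called (median 0.96). Slc1a2, the main glutamate transporter of astrocytes, had 8.80, 9.07, 8.91 and 8.79 at P0 and 11.34, 11.12, 10.66 and 11.40 at P7, a rise of 2.24 (SE 0.16). Timp4, an inhibitor of metalloproteinases, had 2.41, and the calcium-binding protein gene S100b had 2.10. The 1 gene that fell was Megf10 (-0.50), an engulfment receptor. The list's mean level was between 7.89 and 7.97 at P0 and between 9.03 and 9.17 at P7.

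Of 14 genes of oligodendrocyte precursors 12 rose and 1 fell (median 0.93). Cspg4, which encodes the NG2 proteoglycan of these cells, had 6.70, 6.69, 6.77 and 6.79 at P0 and 7.31, 7.64, 7.67 and 7.91 at P7, a rise of 0.90. Nkx2-2, a transcription factor of the lineage, had 1.69. The 1 gene that fell was Vcan (-0.83), a proteoglycan gene that other cells of the newborn brain also express. Of 25 genes of myelinating oligodendrocytes, 21 were measured and 14 tested, so a gene off at both ages could not be counted. Of these 10 rose and 0 fell in limma (median 0.76, and 1.35 over the 7 genes left by a stricter filter on dim genes). Besides Mbp, Cnp, an enzyme of myelin, had 8.57, 8.27, 8.36 and 8.35 at P0 and 10.71, 10.41, 10.25 and 10.59 at P7, a rise of 2.10 (SE 0.13), and Plekhb1 had 1.47.

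Microglial and complement genes rose in 16 of 19 cases, and 0 fell in limma (median 0.77). Csf1r, the receptor that microglia need to survive, had 9.72, 9.21, 9.38 and 9.51 at P0 and 10.48, 10.48, 10.72 and 10.74 at P7, a rise of 1.15 (SE 0.11). The signalling adaptor gene Tyrobp (0.92) and the fractalkine receptor gene Cx3cr1 (0.78) rose too, each without overlap.

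Matrix genes rose more often than they fell. Of 19 genes of perineuronal and brain matrix, 11 rose and 4 fell (median 0.35). The lectican gene Bcan had 10.46, 10.49, 10.61 and 10.49 at P0 and 11.78, 11.99, 12.01 and 12.09 at P7, a rise of 1.45 (SE 0.11), and the tenascin gene Tnr had 0.93. The tenascin gene Tnc, which radial glia express, fell (-0.67) with 1 P7 array above 1 P0 array. Neurofilament and tubulin genes rose in 12 of 27 cases and fell in 4 (median 0.11, range 0.06 to 0.25). Nefl (1.03), Nefm (0.92) and Nefh (1.28) were among those that rose.

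**Figure D2:**
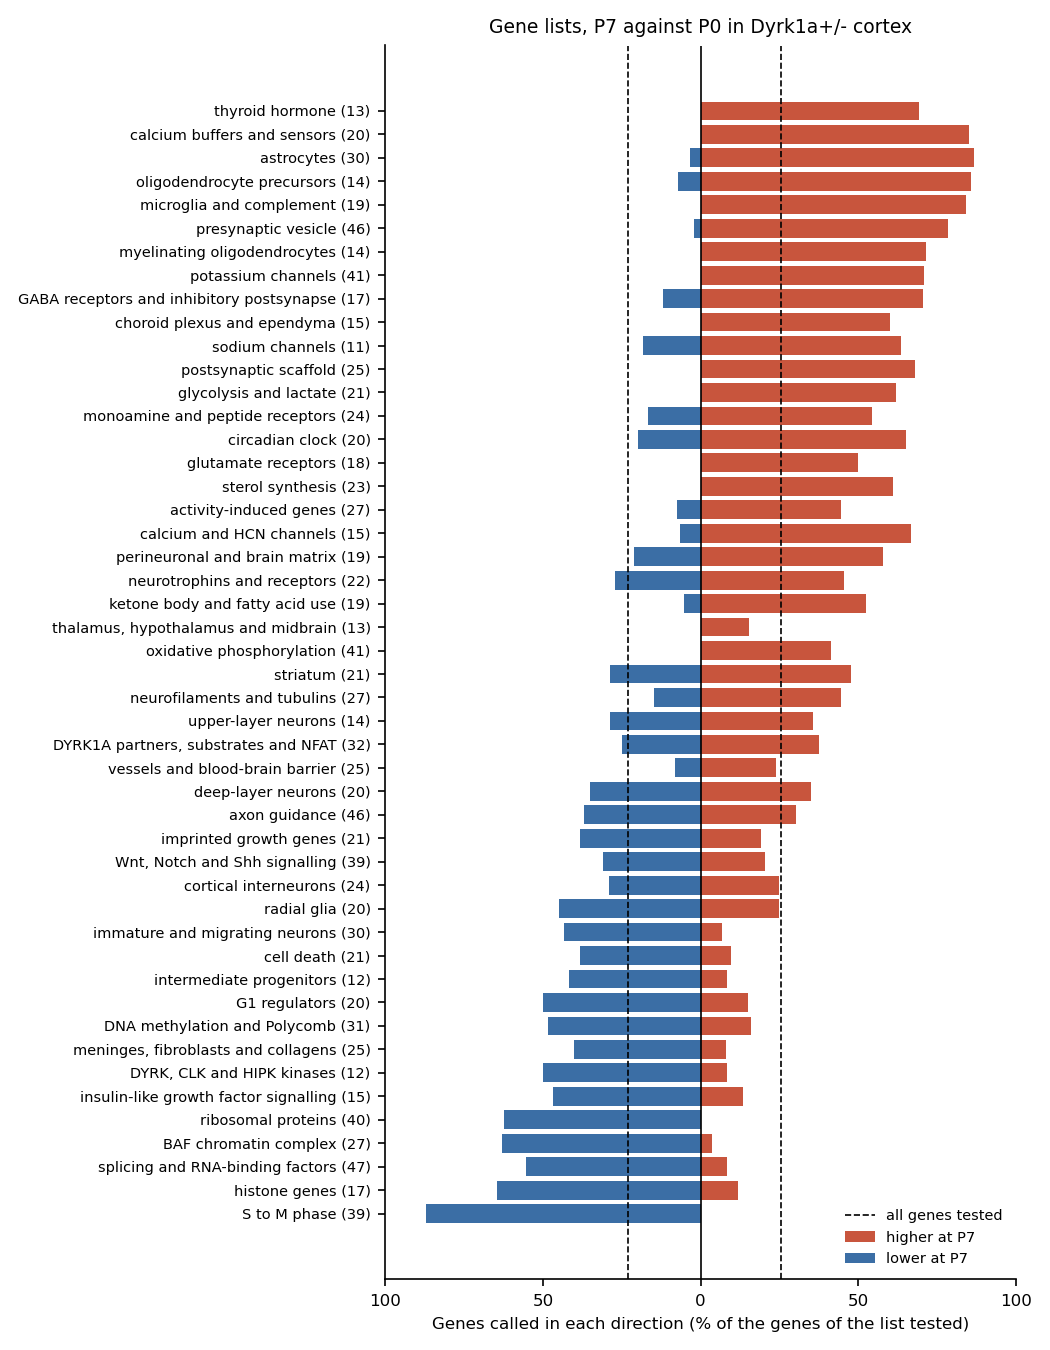
Share of each list's tested genes called higher (red, to the right) or lower (blue, to the left) at P7 in Dyrk1a+/- cortex, with the number tested in brackets and lists ordered by their median difference. The dashed lines mark the shares over all genes tested, 25.5% higher and 22.9% lower. S to M phase stands at the bottom with 87.2% lower, and astrocytes have 86.7% higher.

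Genes of energy and lipid supply rose in many cases. Of 23 sterol synthesis genes 14 rose and 0 fell in limma (median 0.40), with Mvd (1.08), of the mevalonate pathway, and Cyp46a1 (1.30), which turns cholesterol into a form that leaves the brain. The lipid carrier gene Apoe had 10.01, 10.04, 10.12 and 9.83 at P0 and 11.89, 11.79, 11.53 and 11.42 at P7, a rise of 1.66 (SE 0.18). Of 21 genes of glycolysis and lactate 13 rose and 0 fell in limma, with the neuronal enolase gene Eno2 (1.33) and the aldolase gene Aldoa (1.15).

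Of 19 genes of ketone body and fatty acid use, a fuel of the suckling brain, 10 rose and 1 fell (median 0.30, range 0.19 to 0.38). Slc16a1, the carrier of ketone bodies and lactate, had 8.44, 8.89, 8.51 and 8.32 at P0 and 10.40, 10.23, 9.84 and 9.80 at P7, a rise of 1.53 (SE 0.20), and Oxct1, which commits ketone bodies to oxidation, had 0.74. Of 41 genes of oxidative phosphorylation 17 rose and 0 fell in limma with Cox6c at 0.63. The median of that list was 0.19, against 0.46 for glycolysis.

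Genes that thyroid hormone controls or that handle it had a median of 1.47, with 9 of 13 rising and 0 falling in limma. Klf9, a transcription factor that thyroid hormone induces, had 11.69, 11.28, 11.25 and 10.89 at P0 and 13.18, 13.15, 12.86 and 13.20 at P7, a rise of 1.82 (SE 0.18). Dio2, the enzyme that makes active hormone, had 8.16, 7.57, 8.37 and 8.23 at P0 and 9.62, 9.53, 9.48 and 9.60 at P7, a rise of 1.48. Crym, which binds the hormone, had 2.18, with the P0 arrays spread from 6.86 to 8.24. Within replicates 1 and 2 the list's median was 0.76, and within replicates 3 and 4 it was 1.25. Without P0 replicate 4 it was 0.81, and with the mean of all probe sets 0.73. In these 4 settings the median of the calcium buffers and sensors was higher, at 1.09, 1.28, 1.13 and 1.00. Without the suffixes named above the thyroid hormone list had 1.05 over 10 genes, again below the calcium list, which had 1.15.

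Of 20 clock genes 13 rose and 4 fell (median 0.41). The clock output genes Dbp (1.73) and Hlf (1.41) rose, while Nfil3, which opposes them at the same DNA sites, fell (-0.81). The hour of sampling was not among the labels.

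Genes that mark neuron types moved in both directions. Of 14 upper-layer genes 5 rose (35.7%) and 4 fell (28.6%), beside 25.5% and 22.9% of all genes. Rasgrf2 (1.34) and Pou3f3 (-0.79) were the leading ones. The list's median was 0.06 (range 0.01 to 0.15). Of 20 deep-layer genes 7 rose and 7 fell (35.0% each, median 0.01, range -0.13 to 0.08). Tbr1 had 9.15, 9.57, 9.13 and 9.14 at P0 and 8.37, 8.09, 8.10 and 8.35 at P7, a difference of -1.02 (SE 0.12), and Foxp2 fell as well (-0.95).

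Interneuron genes moved in both directions. Of 24 tested 6 rose and 7 fell, shares close to the background. The list's median was -0.12 (range -0.27 to -0.02). The transcription factor genes Dlx1 (-1.44), Dlx2 (-1.30) and Lhx6 (-1.38), which act in young interneurons, fell. The peptide gene Cck had 8.74, 8.64, 8.94 and 8.59 at P0 and 10.65, 10.80, 10.50 and 10.45 at P7, a rise of 1.87. In RNA of whole cortex its signal cannot be assigned to interneurons. The calcium buffer gene Pvalb had 4.85, 4.93, 4.98 and 5.07 at P0 and 5.87, 5.56, 5.95 and 5.39 at P7, a rise of 0.73 that left it near the dim end of the arrays.

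Markers of regions and tissues around the cortex were also measured. Of 21 striatal genes 10 rose and 6 fell, with Gpr6 (2.46), Rasd2 (2.01) and the enkephalin gene Penk (0.99) higher and Isl1 and Zfp503 (-1.36) lower. The median of the list was 0.19 (range 0.04 to 0.31). Its mean level lay between 8.08 and 8.15 at P0 and between 8.12 and 8.20 at P7. Gpr6 gave 4.76, 4.61, 5.68 and 5.46 at P0 and 7.63, 7.62, 7.77 and 7.31 at P7. Of 13 genes of thalamus, hypothalamus and midbrain 2 rose and 0 fell in limma (median 0.25, range 0.12 to 0.44). Their mean levels were 6.47 to 6.84 at P0 and 6.71 to 7.33 at P7.

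Of 25 genes of meninges and collagens 2 rose and 10 fell (median -0.32), with Col3a1 at -0.91, Postn at -0.64 and Pltp rising by 1.20. Their mean level was 7.83 to 8.30 at P0 and 7.79 to 7.91 at P7. Of 25 vessel genes 6 rose and 2 fell (median 0.02, range -0.07 to 0.10). Of 6 red blood cell genes 2 rose (median 0.14, range 0.09 to 0.34). Of 15 genes of choroid plexus and ependyma 9 rose and 0 fell in limma (median 0.62, range 0.46 to 1.10). Their mean levels ran from 5.39 to 6.61 at P0 and from 6.51 to 6.81 at P7. The part that dissection had in any of the results above was not tested.

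The ciliogenesis factor gene Foxj1, of ependyma, had 5.47, 5.47, 5.40 and 5.55 at P0 and 5.95, 6.13, 5.98 and 5.97 at P7, a rise of 0.53 (SE 0.08), and the cilia gene Ak7 had 6.66, 7.03, 6.82 and 6.41 at P0 and 7.86, 7.84, 7.79 and 7.84 at P7, a rise of 1.10 (SE 0.14). Both genes had no overlap between the ages in heterozygotes.

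Genes near the DYRK1A kinase itself fell in several cases. Of 12 genes of the DYRK, CLK and HIPK kinases, which share a fold and in part their targets, 1 rose and 6 fell (median -0.33), Dyrk1a among them. Clk4, a kinase of splicing factors, had 8.81, 9.14, 8.61 and 8.48 at P0 and 8.07, 7.70, 7.48 and 7.49 at P7, a difference of -1.07 (SE 0.16), and Clk2 had -0.41. Of 32 partners and substrates of DYRK1A with NFAT genes, 12 rose (37.5%) and 8 fell (25.0%). Their median was 0.03 (range -0.02 to 0.07), close to that of all genes. Nfatc2 rose (0.94) and Nfatc3 fell (-0.67). The endocytosis genes Dnm1 (0.94), with 10.62, 10.56, 10.62 and 10.57 at P0 and 11.59, 11.61, 11.42 and 11.51 at P7, and Amph (0.87) rose.

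Growth and guidance genes went both ways, as did all genes tested. Of 15 genes of insulin-like growth factor signalling 2 rose and 7 fell (median -0.33, but -0.18 without P0 replicate 2, -0.22 without P7 replicate 4 and -0.58 over the 11 left without those suffixes), with the messenger-binding protein gene Igf2bp3 at -1.53 and the receptor gene Igf1r at -0.86. Of 21 imprinted growth genes 4 rose and 8 fell (median -0.03, range -0.18 to -0.004). Of 46 axon guidance genes 14 rose (30.4%) and 17 fell (37.0%), with a median of 0.01 (range -0.05 to 0.05). The receptor genes Epha3 (-1.55) and Robo1 (-0.99) were lower and the semaphorin gene Sema3e (1.36) higher. Of 39 genes of Wnt, Notch and Shh signalling 8 rose (20.5%) and 12 fell (30.8%), beside 25.5% and 22.9% of all genes. The Wnt antagonist gene Sfrp1 (-1.41) and the ligand gene Wnt7b (-0.95) were among those lower. The median was -0.08 (range -0.21 to 0.03), near that of all genes. For this last list replicates 1 and 2 gave a median of -0.21 and replicates 3 and 4 one of 0.03.

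Genes of cell death fell in 8 of 21 cases and rose in 2 (median -0.18). DYRK1A is known to phosphorylate caspase-9, which Apaf1 activates. Apaf1 had 9.19, 9.32, 9.02 and 9.20 at P0 and 8.70, 8.74, 8.57 and 8.52 at P7, a difference of -0.55 (SE 0.09). Casp2, another initiator caspase gene, had 10.54, 10.69, 10.60 and 10.49 at P0 and 9.51, 9.55, 9.18 and 9.05 at P7, a difference of -1.26 (SE 0.12). Both were lower on every P7 array.

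Some proteins of the developing brain are known to be exchanged for relatives with age, and 18 such pairs were written with an earlier and a later member. In 13 pairs both members were tested. The chloride transporters behaved as a pair of opposite sign. Slc12a5, which extrudes chloride and makes GABA inhibitory, had 10.30, 10.46, 10.47 and 10.38 at P0 and 11.55, 11.52, 11.39 and 11.39 at P7, a rise of 1.06 (SE 0.09). Slc12a2, which loads chloride, had 10.43, 10.43, 10.68 and 10.69 at P0 and 10.25, 10.28, 10.25 and 10.26 at P7, a difference of -0.30 (limma adjusted p = 0.0439) that lost its call without P0 replicate 3 or 4 and without any of the P7 replicates.

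Opposite calls were also found for the sodium channel genes Scn3a (-0.32) and Scn8a (0.63), the filament genes Ina (-0.58) and Nefh (1.28), and the tenascin genes Tnc and Tnr. Scn3a lost its call without P0 replicate 2, 3 or 4 or P7 replicate 1, 2 or 4. For the chromatin subunits Phf10 and Dpf1 the calls ran against the written order, with Phf10 at 0.85 and Dpf1 at -0.83, and the other probe set of Phf10 had the opposite sign at an unadjusted p under 0.05. With the chloride transporters, both members were called with opposite signs in 5 pairs.

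In 6 pairs 1 member alone was called. Actl6a, the BAF subunit of dividing cells, had 9.58, 9.50, 9.63 and 9.79 at P0 and 8.88, 8.81, 8.99 and 9.03 at P7, a difference of -0.70 (SE 0.09), while its neuronal counterpart Actl6b ranged from 4.98 to 6.78 at P0 and from 5.46 to 6.75 at P7 and was not called (0.30, adjusted p = 0.597 in limma). Ezh2 fell and Ezh1 had 0.04. Ptbp2, written as the later member, fell, against the written order. Ptbp1 had 0.18, but -0.20 with the mean of all probe sets. Igf1 rose (0.93) and Igf2 had -0.23, and Slc17a7 rose and Slc17a6 had 0.25. Tubb4a rose (0.53) while Tubb2b differed by less than 0.01.

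Slc17a7 differed between the sets of arrays, with 5.11 to 5.70 at P0, 7.21 and 7.34 on P7 replicates 1 and 2 and 6.10 or less on P7 replicates 3 and 4, so that replicates 1 and 2 alone gave 2.04. Replicates 3 and 4 alone gave 0.44, which was not called. For the scaffold genes Dlg3 (0.65) and Dlg4 (0.45) and the proteoglycan genes Ncan (0.50) and Bcan both members rose, which made 2 pairs. Ncan lost its call without P0 replicate 2, 3 or 4 or P7 replicate 1, 2 or 3. Grin2b, the early subunit of NMDA receptors, rose by 0.69 with the ages overlapping, and it was not called without P0 replicate 1 or 2 or P7 replicate 1, 3 or 4. Its later counterpart Grin2a was below the filter. Gabra2 rose by 1.01.

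**Figure D3:**
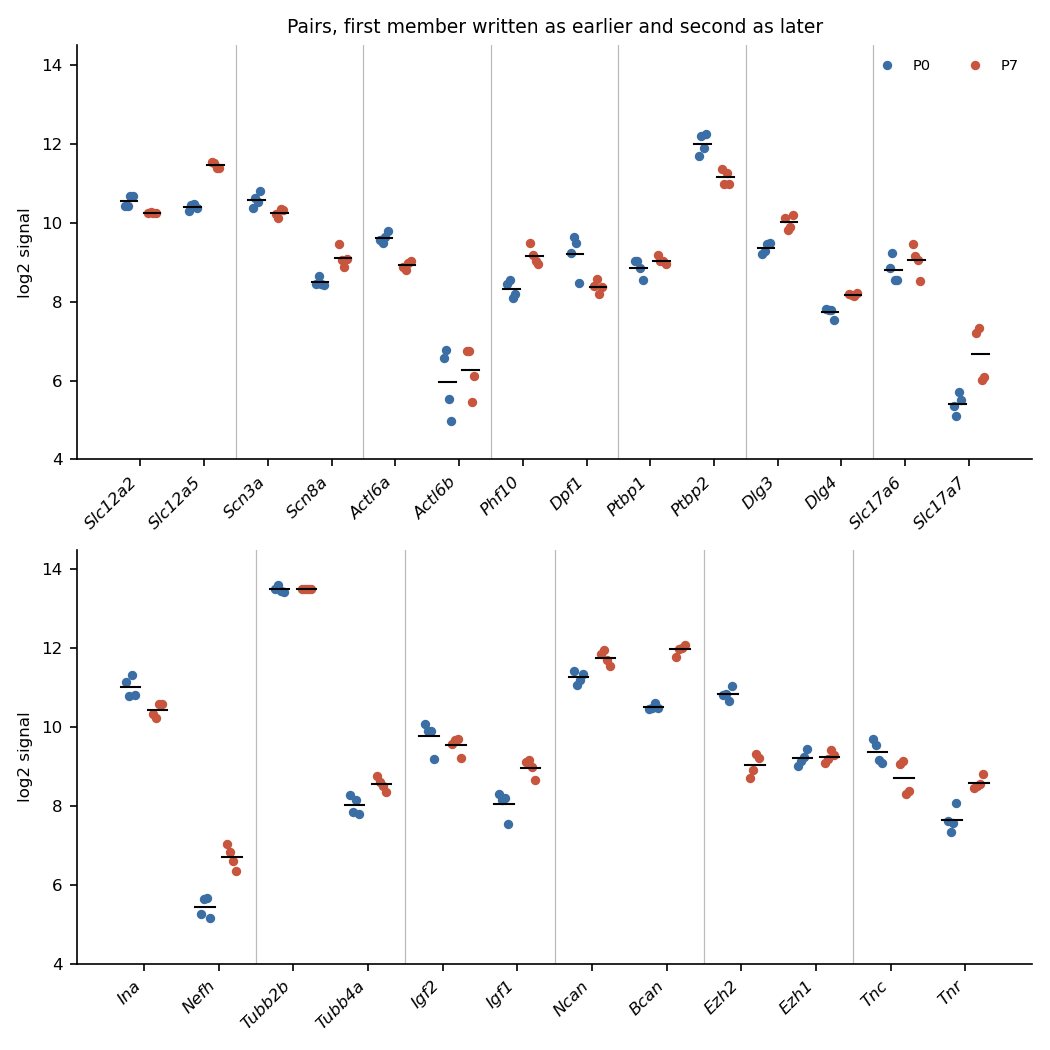
Log2 signal in Dyrk1a+/- cortex of the 13 pairs in which both members were tested, with each point 1 array (blue P0, red P7, 4 each) and the black line their mean; thin vertical lines part the pairs. Slc12a5 and Nefh are higher on every P7 array, Actl6a and Ezh2 lower, and the ages of Actl6b and Ezh1 overlap.

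Wild-type cortex was set beside the heterozygotes in the same fit. In wild type 5236 genes were called between the ages (40.9%), 2874 higher (22.5%) and 2362 lower (18.5%). Of the genes called in heterozygotes 70.0% were called in wild type, and of those called in wild type 82.8% were called in heterozygotes. Of the 4335 called in both, 4334 had the same sign. Across the 12801 genes the differences of both genotypes correlated with r = 0.912, as a description, since genes are not independent replicates. The median absolute difference was 0.29 in heterozygotes and 0.25 in wild type.

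The difference between the genotypes' changes was tested gene by gene, and 0 of 12801 genes (0.0%) were called by limma, with a lowest adjusted p of 0.228. At an unadjusted p under 0.05 there were 995 genes, 422 with a higher and 573 with a lower difference in heterozygotes. Every other setting tried gave 0 called genes as well, with 690 to 1939 at an unadjusted p under 0.05. The median SE of this difference was 0.17, so the arrays could not resolve small differences between the genotypes.

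The genes of lowest p did not pass and are given as values. Foxj1 changed by 0.53 in heterozygotes and -0.08 in wild type, a difference between genotypes of 0.61 (adjusted p = 0.228, limma), and Ak7 by 1.10 and 0.16. Vsnl1 (1.86 and 1.29), Minar1 (1.67 and 0.94), Mal2 (2.40 and 1.65) and the release site gene Rims2 (1.22 and 0.31) had larger values in heterozygotes. Fbxo17 was the 1 gene called with opposite signs (0.26 and -0.38), and its call in heterozygotes was lost without P0 replicate 2, 3 or 4 or P7 replicate 2 or 3. The glycosyltransferase gene B3gnt5 had -1.29 in heterozygotes and -1.76 in wild type.

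In the other direction, Dpy19l1 changed by -1.26 in heterozygotes and -0.39 in wild type, a difference of -0.86 (adjusted p = 0.228, limma), and the chromatin remodeller subunit gene Ino80c by -0.87 and -0.11. Mxi1, which opposes MYC, had -0.68 and -0.03. The myelin gene Mobp had 5.12, 5.17, 5.34 and 5.12 at P0 and 5.46, 5.30, 5.38 and 5.41 at P7 and was not called in heterozygotes (0.21), while it had 0.91 in wild type. The somatostatin receptor gene Sstr2 differed by less than 0.01 in heterozygotes and by 0.65 in wild type. Of the genes that make serine, one-carbon units and asparagine, Psph had -0.20 and 0.60, Mthfd1l -0.14 and 0.34, and Asns -0.25 and 0.54, with none of these 3 called in heterozygotes.

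Among the leading genes, Gfap rose by 4.00 in heterozygotes and 2.59 in wild type, a difference of 1.41 that did not pass (adjusted p = 0.524, limma). Mbp (4.62 and 4.58), Igfbpl1 (-2.92 and -2.79) and Ezh2 (-1.80 and -1.84) had nearly the same values in both. Of 50 lists with at least 3 genes tested, the medians of both genotypes lay within 0.1 of each other in 32 and within 0.2 in 47. The other 3 were the neocortical markers (-0.45 in heterozygotes and -0.03 in wild type), thyroid hormone (1.47 and 1.75) and choroid plexus and ependyma (0.62 and 0.40). The signs of the medians differed for upper-layer neurons (0.06 and -0.04), deep-layer neurons (0.01 and -0.17) and axon guidance (0.01 and -0.06). The differences between the medians were not tested.

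**Figure D4:**
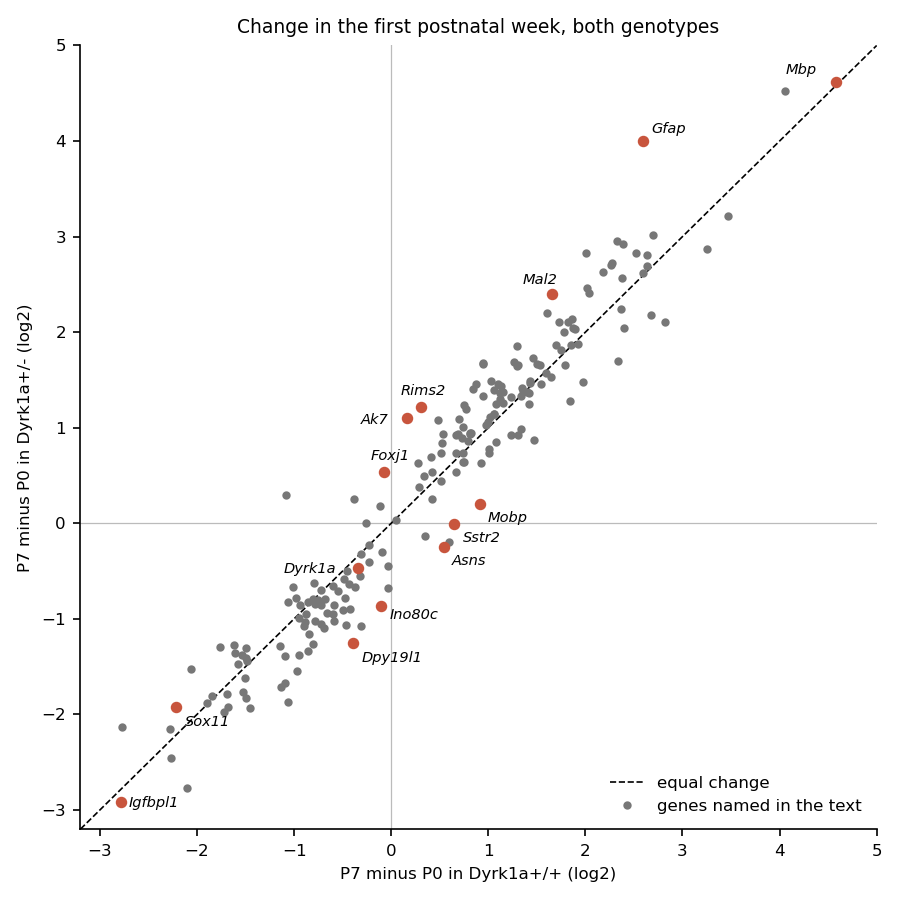
Log2 difference between P7 and P0 of the genes named in the text, in Dyrk1a+/+ cortex on the horizontal and in Dyrk1a+/- cortex on the vertical axis, with the dashed line where both are equal and 14 genes labelled in red. Most points lie along the line, Foxj1, Ak7, Rims2, Mal2 and Gfap lie above it, Mobp, Sstr2, Asns, Ino80c and Dpy19l1 below it, and no gene passed the test of the difference.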

How the data were processed

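RNA of 16 cortices (4 per genotype and age) was labelled in 2 cycles from 100 ng and hybridised to Affymetrix mouse arrays, per the labels. The deposited values are log2 signals, 1 for each of 45037 probe sets per array, which the authors had normalized and summarised by a method not given in the sources used here. The table held 0 control probe sets, and depth does not apply to arrays, so the number of arrays limits the precision. The annotation table paired 34945 probe sets with 1 gene symbol, 932 with several and 9160 with none, and 34741 of the first matched RefSeq (GRCm38.p6) by gene ID. Dim genes, with a mean under log2 5.15 (the 40th percentile over probe sets), were not tested.

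A model with 4 group means was fitted to the 16 arrays with limma 3.58.1 (lmFit, eBayes, 12 residual and 4.59 prior degrees of freedom) in R 4.3.3, two-sided, with Benjamini-Hochberg adjustment over the genes tested. Contrasts were P7 minus P0 in each genotype and the difference of these. The procedure was tested on simulated data. Dyrk1a was also tested by exact permutation (70 arrangements) with scipy 1.17.1. The members and lists were chosen with earlier results of these data known. Genes are named by rule: Dyrk1a, up to 15 called genes per direction with the largest difference whose ages do not overlap, up to 6 per list and direction in the same way, members of pairs, neocortical markers, and up to 10 genes per direction of lowest p for the difference between genotypes. A selection of these is printed. Genes that were the single member called in a direction are named after their values were seen. Alternatives covered scaling, the filter on dim genes, the choice of probe sets, blocks, a Y-linked covariate and leaving out arrays. Figures were drawn with matplotlib 3.10.9 in Python 3.11.15.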

Additional observations from a re-analysis of the deposited data

Results flagged for a closer look

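For 406 groups of 4 heterozygous arrays, 1 gene at 1 age each, the distance of the highest or lowest array to its neighbour was set against the range of the group, and in 20 it was above Dixon's critical value for 4 values. Chance alone gives about 1 in 20 such groups, which is close to the number found.

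At P0, replicate 2 had the lowest value of the group for Grm7 (9.17, the others 10.07 or more), Cyp46a1 (7.19) and Hlf (7.31), and the highest for Mn1 (11.16), Scn8a (8.65) and Tbr1 (9.57). At P0, replicate 4 was highest for Zfp81 (8.70) and Penk (7.86) and lowest for Dlg4 (7.54).

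At P7, replicate 3 was lowest for Gfap (7.61, the others 8.76 or more), Gpr17 (8.97), Klf9 (12.86) and Nfatc3 (6.80). At P7, replicate 4 was lowest for Aldoa (11.37) and Rplp0 (10.89) and highest for Sema3e (9.21). At P7, replicate 1 was highest for Bub1 (5.95) and Glrb (10.87) and lowest for Hnrnpa1 (10.48), and replicate 2 was lowest for Msi2 (7.30). Every one of these genes was called with no overlap of the ages, which the rule for naming genes asked of most of them.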

How the results depend on the processing

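The count of 6194 genes called in heterozygotes ran from 4958 (only replicates 3 and 4) to 7524, and was 5522 to 5917 with 1 heterozygous array left out. In wild type 5236 ran from 3736 to 6561, and was 4488 to 5019 with 1 array left out. Asking for a log2 difference of 1 as well left 833 genes in heterozygotes and 685 in wild type. The test between genotypes gave 0 genes in all 30 settings. The dimmest Dyrk1a probe set had a difference of 0.031, against -0.47 on the brightest. Of 202 genes named, 190 kept their side of the threshold in every setting in which they were tested. Hapln1, Bub1, Pax6, Zfp81, Gabrd and Mobp were not tested with the mean of all probe sets, which lay below the filter. The exceptions were Slc17a7, Grin2b, Slc12a2, Scn3a, Ncan, Dpf1, Tubb4a, Emx1 and Fbxo17, which lost their call in 1 setting or more, and Fezf2, Mobp and Asns, which gained one. With another choice of probe sets the value moved by more than 1.5 times for 56 of 191 called genes, by most for Kcnc4 (0.37), Gfap (0.89) and Rasd2 (0.49) without the suffixes _x_at, _s_at and _a_at, and for Rims3 (-0.19), Phf10 (0.26), Rims2 (0.38), Vcan (-0.26) and Msi2 (-0.34) with the mean of all probe sets, and 0 changed sign. Of the block fits, the replicate block changed the call of Fezf2 alone among them.

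Replicate numbers did not pair arrays across the ages: deviations of equally numbered heterozygous arrays correlated between 0.05 and 0.49, and not every P7 array correlated best with its own number. With the replicate number as a block 7524 genes were called in heterozygotes and 6561 in wild type, and 0 between genotypes (1858 at an unadjusted p under 0.05). Signals near the dim end of the arrays limit what can be said of genes low at both ages, and the deposited table holds 0 control probe sets, so RNA quality was not checked with them.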
